A study of Mus musculus with 18 samples.

Results

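Mouse chromosome 16 carries a long block of genes whose human counterparts lie on chromosome 21. Its centromeric part, from Lipi up to the cluster of interferon receptor genes, also holds 21 tested genes that are not described here one by one. The 32 genes described here lie in that part. They were taken by name and chromosome from the table of 55385 genes: every row on chromosome 16 whose symbol is one of the 32, a rule that reads no measured value. Of the 32, 26 had enough reads in kidney to be tested for a difference between genotypes, among 17575 genes tested in all, and 6 did not. In the GRCm38 build they run from Lipi, which starts at base 75540514, to Olig1, which lies 0.1 Mb before the receptor cluster (chr16:91372783-91565623), and all 32 are annotated as protein-coding.

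Whole kidneys of 18 mice were compared by sequencing of polyadenylated RNA. The 6 wild-type mice were C57BL/6J. The 6 Dp16 mice carry a duplication of the chromosome 16 block in addition to the normal copies and serve as a mouse model of trisomy 21. In the 6 Dp16 2xIFNRs mice the receptor cluster is back at 2 copies on that background, as their name states, and the proximal genes remain at 3. Each genotype had 3 males and 3 females, aged 17.1 to 18.0 weeks, and no treatment is given for any animal. Each sample is taken as 1 animal from its own identifier, age and sex in the labels, which do not say so outright. The last number of that identifier is shared by 11 of the 18 libraries, across genotypes, and the labels do not say what it marks. The p-values weigh each difference against the spread between these samples that is left once genotype and sex are fitted.

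An added gene copy is an added template for transcription, so 3 copies in place of 2 would, by gene count alone, put the messenger RNA at 1.5 times the level in wild-type tissue (a log2 fold of 0.58). Individual genes can depart from that ratio where their transcription or messenger stability is regulated, or where the number of cells that express them differs. In whole kidney, fewer cells of a type and less RNA per cell cannot be told apart. The proximal genes have no single pathway in common: they include factors of protein and RNA quality control, junction and matrix proteins, signalling adaptors, and genes of neurons and gut that kidney is not known for.

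Promoter windows of 4 genes are shown, chosen because their dosage values set the range of the results: Mrpl39, whose fold was the most precisely measured, Ncam2, whose level did not differ detectably, and Cyyr1 and Samsn1, both of which had an interval above 1.5-fold in Dp16. Each is 300 bases from the RefSeq tables for GRCm38.p6, from 250 before to 50 after an annotated start, read 5′ to 3′ on the strand of the gene, with CG dinucleotides in capitals. The windows are chr16:84735195-84735494 for Mrpl39 (minus strand), chr16:81200447-81200746 for Ncam2 (plus strand), chr16:85550324-85550623 for Cyyr1 (minus strand) and chr16:75909217-75909516 for Samsn1 (minus strand). Only the Ncam2 window lies at the 5′ end of the annotated gene span. The others lie at starts inside the span, whose 5′ end is at base 84735742 for Mrpl39, 85553397 for Cyyr1 and 76022281 for Samsn1. The windows are therefore not all at like starts.
Mrpl39: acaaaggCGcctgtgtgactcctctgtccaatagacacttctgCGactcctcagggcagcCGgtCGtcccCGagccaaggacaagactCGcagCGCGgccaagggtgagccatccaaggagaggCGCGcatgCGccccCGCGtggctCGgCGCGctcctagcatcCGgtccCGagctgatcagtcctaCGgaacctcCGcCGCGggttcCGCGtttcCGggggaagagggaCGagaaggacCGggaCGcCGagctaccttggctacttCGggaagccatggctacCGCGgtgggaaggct
Ncam2: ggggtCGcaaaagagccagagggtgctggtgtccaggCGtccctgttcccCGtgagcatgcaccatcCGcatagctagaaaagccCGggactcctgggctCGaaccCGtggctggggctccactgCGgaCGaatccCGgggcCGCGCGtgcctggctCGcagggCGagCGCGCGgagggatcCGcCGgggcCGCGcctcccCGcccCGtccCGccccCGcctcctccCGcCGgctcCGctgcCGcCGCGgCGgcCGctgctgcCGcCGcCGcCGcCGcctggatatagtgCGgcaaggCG
Cyyr1: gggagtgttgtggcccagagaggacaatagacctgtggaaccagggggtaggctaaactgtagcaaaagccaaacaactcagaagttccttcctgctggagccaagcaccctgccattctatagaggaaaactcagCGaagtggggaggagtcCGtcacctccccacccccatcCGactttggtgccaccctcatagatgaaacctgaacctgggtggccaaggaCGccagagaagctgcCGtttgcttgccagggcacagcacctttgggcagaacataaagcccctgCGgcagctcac
Samsn1: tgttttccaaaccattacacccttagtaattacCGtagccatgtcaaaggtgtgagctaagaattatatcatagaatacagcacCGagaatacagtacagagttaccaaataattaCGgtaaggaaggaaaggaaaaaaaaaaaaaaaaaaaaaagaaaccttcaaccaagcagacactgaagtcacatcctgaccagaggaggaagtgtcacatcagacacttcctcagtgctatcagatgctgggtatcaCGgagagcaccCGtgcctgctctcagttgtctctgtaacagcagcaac

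The Mrpl39 window held 32 CG dinucleotides and the Ncam2 window 41, the arrangement known as a CpG island that many widely used genes have. The Cyyr1 window had 6 and the Samsn1 window 5, each at a start inside its gene. Of the other 3 genes with an interval above 1.5-fold in Dp16, Rbm11 had 25 CG dinucleotides and Eva1c 23, and no window was found for Rwdd2b. The Eva1c window, chr16:90830609-90830908, also lies at a start inside its gene, whose span begins at base 90826719. Whether the kind of window goes with the fold was not tested. Windows were found for 22 of the 32 genes, 19 of them tested and 3 not. Of the 23 windows of tested genes, 78.3% held at least 10 CG dinucleotides, against 71.6% of the 15845 windows of all genes tested and 43.5% of all 32851 windows. The letters CCGGAAG, searched on both strands, stood in 3 of the 23 windows and in 14.9% of those of all genes tested. TATAAA stood in 4.35% against 7.99%, and CCAAT in 21.7% against 37.2%, both searched on both strands.

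The genotype labels were checked first on the interferon receptors. All 4 rose in Dp16 over wild-type: Ifnar2 by a log2 fold of 0.80 ± 0.05 (SE), Ifngr2 by 0.76, Il10rb by 0.60 and Ifnar1 by 0.58. Against Dp16, Ifnar2 fell by 0.60 on the log2 scale in Dp16 2xIFNRs, Il10rb fell by 0.62 and Ifngr2 fell by 0.63, with adjusted p of at most 0.000224 in edgeR's quasi-likelihood test. Ifnar1 had -0.42, with an adjusted p of 0.113. Over wild-type, Ifnar2 was still higher in Dp16 2xIFNRs, by 0.20 ± 0.05 (adjusted p 0.0368), while Ifnar1 had 0.16, Ifngr2 0.13 and Il10rb -0.013, none past the threshold. The 3 nearest tested genes on the centromeric side of Lipi, which lie outside the block, had log2 folds in Dp16 of -0.06 (Robo2), 0.27 (Robo1) and -0.09 (Gbe1), none past the threshold. Libraries held 42157790 to 57814587 counts, and the marker genes of proximal tubule summed to between 7003 and 10760 CPM (the normalised read count, scaled to the library's total) in the 18 libraries, those of distal nephron to between 5633 and 8210.

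With the labels checked, the first question is whether the proximal genes follow their copy number. In Dp16, 20 of the 26 tested genes were higher than in wild-type and none was lower, where higher means an adjusted p under 0.05 in the edgeR fit across all genes, which called 4.23% of the 17575 genes in either direction and 3.17% as higher and 1.06% as lower. The median log2 fold over the 26 was 0.56, with quartiles of 0.47 and 0.72, beside a median of -0.0086 over all genes tested. In Dp16 2xIFNRs, 19 of the 26 were higher than in the same wild-type libraries and none lower (4.79% of all genes called, 3.17% as higher and 1.61% as lower), with a median of 0.60 and quartiles of 0.52 and 0.68. Both comparisons share their 6 wild-type animals, so the values of the 2 genotypes are given side by side and not as independent evidence. The other 85 tested genes of the block, receptors left out, had medians of 0.50 in Dp16 and 0.52 in Dp16 2xIFNRs, with 47 and 51 called higher. Of these 85, 21 lie on the centromeric side of the receptors, with medians of 0.55 and 0.52 and 9 and 10 called higher. The 432 tested genes of chromosome 16 outside the block had medians of -0.0067 and 0.02. Without sex as a term, 11 of the 26 were higher in Dp16 and 14 in Dp16 2xIFNRs.

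**Figure D1:**
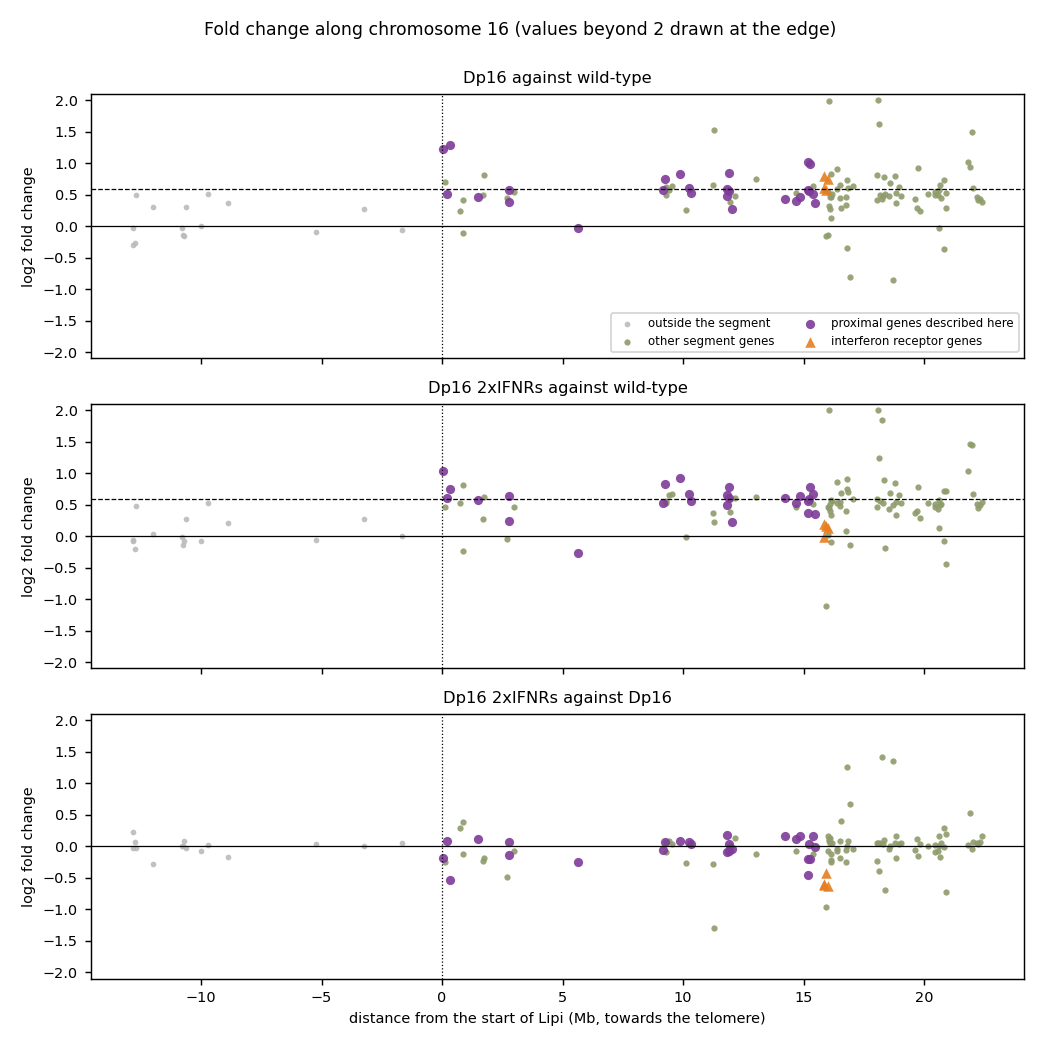
Log2 fold change (vertical axis) of each tested gene by its distance in Mb from the start of Lipi (horizontal axis), for Dp16 against wild-type, Dp16 2xIFNRs against wild-type and Dp16 2xIFNRs against Dp16, with the 1.5-fold line dashed in the upper 2 panels. The 26 proximal genes (purple) centre on medians of 0.56 and 0.60 in the upper panels and on 0.04 in the lowest one, where the 4 receptor genes (orange) lie at -0.42 to -0.63.

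Read against the gene count, most of the 26 were compatible with 1.5-fold at the precision of 6 animals a group. The 95% interval of the log2 fold, not adjusted for the number of genes, included 0.58 and excluded 0 in 19 genes in Dp16, as it did in 6.41% of all genes tested. It lay wholly above 1.5-fold in 5 genes (Rbm11, Samsn1, Cyyr1, Rwdd2b and Eva1c), against 0.734% of all genes, and wholly below in 2 (Ncam2 and Map3k7cl). In Dp16 2xIFNRs it included 1.5-fold in 19 genes, and in 2 of them (Mis18a and Mrap) it also included 0, while 5.64% of all genes had an interval with 1.5-fold and without 0. It lay above in 4 (Rbm11, Jam2, Cyyr1 and Rwdd2b), against 0.569% of all genes, and below in 3 (Ncam2, Btg3 and Map3k7cl). The share of all genes with an interval wholly below 1.5-fold was not counted for either genotype. The CPM of every Dp16 animal exceeded that of every wild-type animal in 11 genes (1.06% of all genes), and the same held for Dp16 2xIFNRs in 13 (1.04%).

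**Figure D2:**
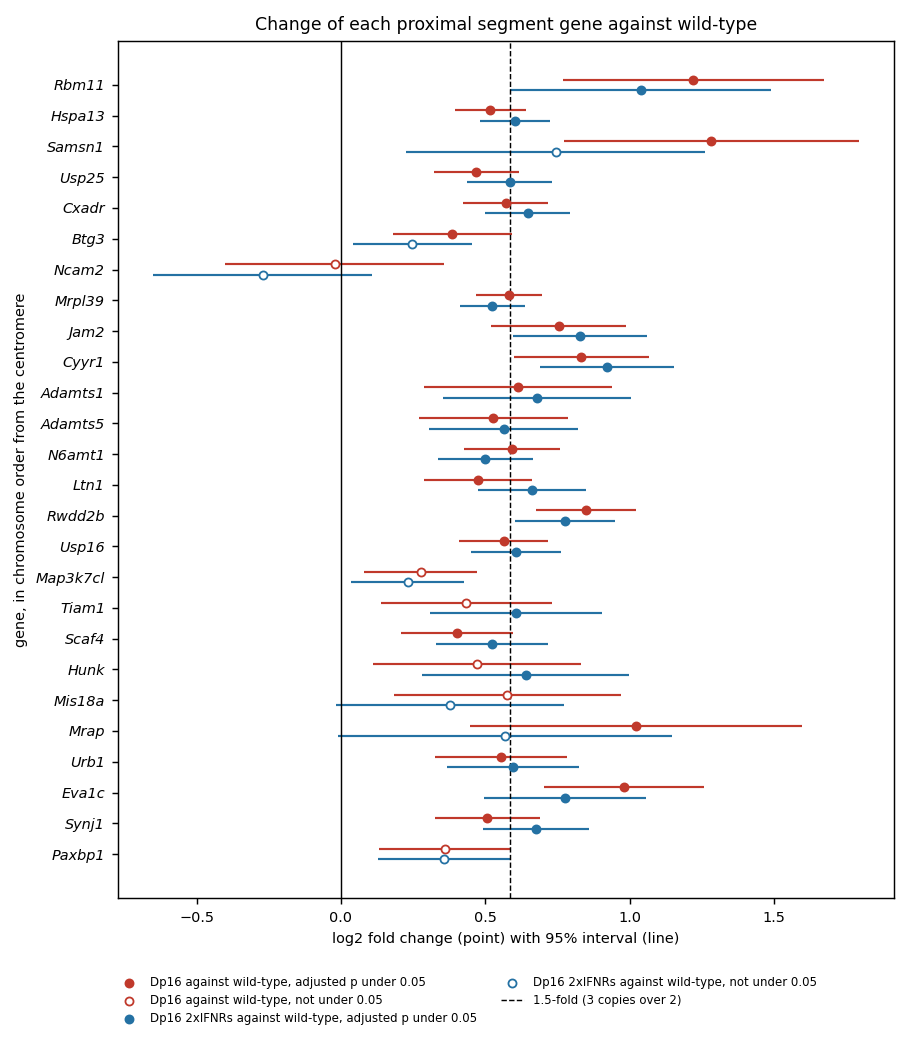
Log2 fold change against wild-type (horizontal axis; point, with its 95% interval as a line) for the 26 tested proximal genes in chromosome order, in Dp16 (red) and Dp16 2xIFNRs (blue), with filled points for an adjusted p under 0.05. Most intervals cross the dashed 1.5-fold line, those of Rbm11, Cyyr1 and Rwdd2b lie to its right in both genotypes, and those of Ncam2 and Map3k7cl lie to its left in both.

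Among the genes of protein quality control and ubiquitin turnover, Hspa13, Usp25 and Usp16 were called higher in both genotypes under every alternative. Hspa13 encodes an Hsp70-type chaperone of microsomes, Usp25 and Usp16 encode deubiquitinases, of which Usp16 acts on histone H2A, and Ltn1 encodes the ligase that marks unfinished chains on stalled ribosomes. Hspa13 (chr16:75745431-75767104) lay at a lowest, median and highest value of 32.9, 36.2 and 42.8 CPM in wild-type, 43.7, 54.1 and 60.7 in Dp16 and 45.4, 57.1 and 68.2 in Dp16 2xIFNRs. No trisomic animal overlapped the wild-type animals. Its log2 fold was 0.52 ± 0.06 in Dp16 and 0.60 ± 0.06 in Dp16 2xIFNRs, with adjusted p of 3.51e-05 and 6.82e-06.

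Usp25 (chr16:77013706-77116780) was likewise apart in all animals, with 49.7, 59.4 and 68.2 CPM in wild-type, 74.2, 78.3 and 93.3 in Dp16 and 82.3, 86.7 and 100.3 in Dp16 2xIFNRs. Its folds were 0.47 ± 0.07 and 0.58 ± 0.07. Usp16 rose from a median of 31.7 CPM to 47.7 in Dp16 (0.56 ± 0.07) and 49.8 in Dp16 2xIFNRs (0.61 ± 0.07). Ltn1 rose by 0.47 ± 0.09 and 0.66 ± 0.09. Its levels overlapped wild-type in Dp16, where 2 of the 3 females lay at 49.5 and 50.6 CPM against a wild-type maximum of 58.2 in a male. Within each sex the Dp16 animals were above the wild-type animals. Without sex as a term the Ltn1 call in Dp16 was lost. The 18 listed partners of these products, Hsp70 relatives, Usp28, ligases of histone H2A and factors of ribosome quality control such as Nemf and Zfp598, had no member past the threshold in either comparison.

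Genes of RNA, translation and chromatin followed. Mrpl39 encodes a protein of the large subunit of the mitochondrial ribosome and gave the tightest estimate of all. Its wild-type kidneys held 42.7, 47.1 and 52.4 CPM (lowest, median, highest), those of Dp16 61.4, 72.0 and 74.8, and those of Dp16 2xIFNRs 59.4, 68.1 and 76.8. All 12 animals with the duplication were above all 6 wild-type animals. The log2 folds of 0.58 ± 0.05 (adjusted p 3.26e-06) and 0.52 ± 0.05 (1.18e-05) were close to the gene count, which lay inside both intervals. None of the other 47 tested genes for large-subunit proteins of that ribosome was called in either comparison, and their median log2 folds were -0.03 and -0.10.

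N6amt1 encodes a methyltransferase of the translation release factor and Urb1 a nucleolar protein of large ribosomal subunit assembly. N6amt1 rose by 0.59 ± 0.08 in Dp16 and 0.50 ± 0.08 in Dp16 2xIFNRs. For Urb1 the folds were 0.55 ± 0.11 and 0.60 ± 0.11, from a wild-type median of 5.65 CPM. Scaf4, which binds RNA polymerase II and acts in transcript termination, rose by 0.40 ± 0.09 (adjusted p 0.0168) and 0.52 ± 0.09 (0.00251). The Scaf4 call in Dp16 was lost without sex as a term and in a fit of wild-type and Dp16 alone. Scaf4 overlaps the 3′-side neighbour Sod1 on the opposite strand, and Usp16 overlaps Cct8 in the same way. The library kit keeps the strand, but the strand setting of the counting is not given in the sources used here.

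Rwdd2b, a gene of little-known function with an RWD domain, exceeded the gene count. It lay at 16.3, 18.9 and 20.2 CPM in wild-type, 29.4, 32.0 and 42.9 in Dp16 and 25.6, 31.2 and 41.4 in Dp16 2xIFNRs, without overlap. The log2 fold was 0.85 ± 0.08 with an interval of 0.68 to 1.02 in Dp16, and 0.78 ± 0.08 with 0.60 to 0.95 in Dp16 2xIFNRs. Its paralogue Rwdd2a, on another chromosome, had -0.017 and 0.19, neither called.

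Rbm11, an RNA-binding splicing factor known from brain and testis, rose further still, at low counts. Wild-type kidneys held 0.887, 2.20 and 2.84 CPM, Dp16 kidneys 3.26, 4.60 and 6.20, and Dp16 2xIFNRs kidneys 2.14, 3.87 and 6.98. Every Dp16 animal was above the wild-type maximum, as were 4 of the 6 Dp16 2xIFNRs animals. The folds were 1.22 ± 0.22 (adjusted p 0.00289) and 1.04 ± 0.22 (0.00841), with lower limits of 0.77 and 0.59. Of the 26 genes, only Samsn1 had a higher fold in Dp16, and none had one in Dp16 2xIFNRs. Rbm11 lies 0.05 Mb from the start of Lipi, the first of the 26 from the centromeric end.

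The 3 remaining genes of this kind were less clear. Btg3 encodes an antiproliferative protein that binds the CCR4-NOT deadenylase. It rose in Dp16 by 0.39 ± 0.10 (adjusted p 0.0308), and had 0.25 ± 0.10 (0.172) in Dp16 2xIFNRs. Its wild-type range of 6.35 to 8.79 CPM overlapped that of Dp16, 8.01 to 12.4, and that of Dp16 2xIFNRs, 8.20 to 9.90. The Btg3 call was lost without any 1 of 6 libraries (wild-type replicates 4, 5 and 6 and Dp16 replicates 1, 2 and 3), with adjusted p of up to 0.1025 over all alternatives. Btg3 (chr16:78332637-78377192) overlaps Cxadr (chr16:78301489-78359774) on the other strand, and the strand setting of the counting is not given. Paxbp1, a splicing-complex protein, had 0.36 ± 0.11 in both genotypes with adjusted p of 0.0682 and 0.0684. It was called higher in 6 of 30 alternatives in Dp16 and in 5 in Dp16 2xIFNRs. Mis18a, which helps load the centromeric histone, had 0.58 ± 0.19 (0.0937) and 0.38 ± 0.19 (0.301) at 1.82 to 4.53 CPM over all animals. Mis18a was called higher in 2 of 30 alternatives in Dp16 and in 0 in Dp16 2xIFNRs.

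Among genes of the cell surface and matrix, both junction molecules rose. Cxadr encodes the coxsackie and adenovirus receptor of epithelial tight junctions and Jam2 a junctional adhesion molecule known from endothelium. Cxadr lay at 30.0, 33.2 and 37.7 CPM in wild-type, 37.7, 51.4 and 55.6 in Dp16 and 45.6, 52.2 and 59.6 in Dp16 2xIFNRs. Only the lowest Dp16 female reached the wild-type range. Its folds were 0.57 ± 0.07 (adjusted p 8.51e-05) and 0.65 ± 0.07 (1.79e-05). The overlap with Btg3 on the other strand applies to these values too.

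Jam2 (chr16:84774123-84825928) lay at 8.94, 13.5 and 14.8 CPM in wild-type, 17.3, 20.3 and 25.4 in Dp16 and 15.1, 22.7 and 28.0 in Dp16 2xIFNRs, so that no trisomic animal overlapped wild-type. The folds were 0.76 ± 0.11 and 0.83 ± 0.11. Of 5 further junction genes listed with these 2, F11r, Jam3, Clmp, Esam and Tjp1, none was called in either comparison.

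Cyyr1, a small cysteine- and tyrosine-rich membrane protein of little-known function, rose by more than the gene count in both genotypes. It lay at 8.71, 11.2 and 14.1 CPM in wild-type, 17.1, 19.6 and 24.9 in Dp16 and 19.4, 21.4 and 24.5 in Dp16 2xIFNRs. The groups with the duplication were apart from wild-type in every animal, and overlapped each other. The log2 folds were 0.83 ± 0.11 (interval 0.60 to 1.07) and 0.92 ± 0.11 (0.69 to 1.16). The 6 endothelial marker genes, from Pecam1 to Egfl7, summed to 258 to 398 CPM in wild-type, 328 to 400.4 in Dp16 and 336 to 426 in Dp16 2xIFNRs. None of those 6 was called, and their median log2 folds were 0.16 and 0.20. The part of endothelial content in the Jam2 and Cyyr1 values was not tested.

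Adamts1 and Adamts5 encode secreted proteases that cut proteoglycans such as versican. Adamts1 rose by 0.61 ± 0.16 (adjusted p 0.0303) and 0.68 ± 0.16 (0.0150), from a wild-type median of 40.2 CPM to 58.6 and 66.4. One Dp16 female held 106 CPM, and the wild-type maximum of 59.0 lay within the Dp16 range. The Adamts1 call in Dp16 was lost without any 1 of 5 libraries (wild-type replicates 1, 2 and 3 and Dp16 replicates 1 and 4), with adjusted p of up to 0.156 over all alternatives. Adamts5 rose by 0.53 ± 0.12 (0.0187) and 0.56 ± 0.12 (0.0110) with no overlap, from 17.8 to 27.8 CPM in wild-type to 27.9 to 44.6 in Dp16 and 29.2 to 42.2 in Dp16 2xIFNRs. Without Dp16 replicate 1, which held the 44.6, the adjusted p of Adamts5 in Dp16 was 0.0540. That call was also lost without sex as a term and in limma on log2(RPKM + 0.1) with no filter on low values.

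The related protease Adamts4, on another chromosome, also rose, by 1.5 ± 0.31 (adjusted p 0.00862) in Dp16 and 1.25 ± 0.31 (0.0267) in Dp16 2xIFNRs, at 0.482 to 1.55 CPM in wild-type. Their substrate Vcan rose in Dp16 2xIFNRs by 0.96 ± 0.26 (0.0411) and had 0.65 ± 0.26 (0.194) in Dp16. Among 5 stromal markers, Col3a1 rose in Dp16 (0.62 ± 0.16, 0.0332) and the other 4 were not called. The 5 markers summed to 182 to 292 CPM in wild-type, 218 to 404 in Dp16 and 177 to 378 in Dp16 2xIFNRs, and their part in the protease values was not tested.

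Eva1c, a receptor for slit ligands and heparin, rose by 0.98 ± 0.13 (adjusted p 0.000231) in Dp16 and 0.78 ± 0.13 (0.00201) in Dp16 2xIFNRs, and carried the largest sex difference of the 26. Wild-type males held 0.966, 1.11 and 2.08 CPM and wild-type females 8.81, 9.24 and 10.4. Dp16 males held 2.49, 2.97 and 3.07 and Dp16 females 18.0, 18.1 and 18.6. In Dp16 2xIFNRs the males held 1.83, 2.46 and 2.5 and the females 15.7, 16.5 and 18.4. All animals with the duplication were above wild-type of the same sex except for 1 Dp16 2xIFNRs male at 1.83 CPM. The difference between the sexes was larger than that between genotypes, with a log2 fold of 2.78 ± 0.11, or 6.86 times more in females. The increase in Dp16 was 1.03 ± 0.21 in males and 0.94 ± 0.18 in females, and the test of the difference between those gave an unadjusted p of 0.76.

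Ncam2, a neural cell adhesion molecule, was the only 1 of the 26 whose fold was below 0. Its wild-type animals lay at 2.26, 2.58 and 3.80 CPM, those of Dp16 at 1.42, 2.72 and 3.76, and those of Dp16 2xIFNRs at 2.00, 2.33 and 2.57. With the sexes together the 3 groups overlapped. Among males, those of Dp16 2xIFNRs, at 2.00 to 2.36 CPM, lay below all of wild-type (2.52 to 3.80) and of Dp16 (2.67 to 2.77), a difference of -0.43 ± 0.27 from wild-type males that did not pass the threshold (adjusted p 0.497 in edgeR's quasi-likelihood test). The log2 folds were -0.022 ± 0.18 (adjusted p 0.970) and -0.27 ± 0.18 (0.468), with upper limits of 0.36 and 0.11, so that 1.5-fold lay outside both intervals. Ncam2 spans chr16:81200697-81626828 and shares its strand and part of its span with 2 other annotated genes, Gm49555 and 7120432I05Rik. How reads there were assigned is not given in the sources used here. Its relative Ncam1 had 0.20 and 0.05, neither called.

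Of the signalling genes, Samsn1 encodes an adaptor with SH3 and SAM domains that is known from B cells and other blood cells. It lay at 0.473, 0.596 and 0.773 CPM in wild-type, 0.952, 1.49 and 2.03 in Dp16, and 0.482, 1.08 and 1.5 in Dp16 2xIFNRs. Dp16 was apart from wild-type in all animals and Dp16 2xIFNRs was not. The log2 fold was 1.28 ± 0.24 in Dp16 (adjusted p 0.00484) and 0.74 ± 0.25 in Dp16 2xIFNRs (0.0958). Without Dp16 2xIFNRs replicate 3 the latter passed the threshold, with 0.86 and an adjusted p of 0.0382. On the log2(RPKM + 1) scale, which understates the change of low genes, the Dp16 value was 0.44.

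The 7 lymphocyte markers of T and B cells summed to 3.84 to 6.92 CPM in wild-type, 7.69 to 16.6 in Dp16 and 7.39 to 10.4 in Dp16 2xIFNRs, with none at 0 in all libraries. Of these, Cd3e, Cd3g and Cd4 rose in Dp16, and Cd4 alone in Dp16 2xIFNRs. The 6 macrophage markers summed to 137 to 187, 207 to 244 and 188 to 258 CPM, with 5 of 6 called higher in Dp16 and 4 of 6 in Dp16 2xIFNRs. Their part in the Samsn1 values was not tested. The highest Samsn1 value, 2.03 CPM, and the highest lymphocyte sum were in the same Dp16 female.

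Mrap encodes the accessory protein of the corticotropin receptor, which adrenal cortex and fat cells use. It rose in Dp16 by 1.02 ± 0.28 (adjusted p 0.0431), from 2.91, 4.71 and 5.83 CPM in wild-type to 4.72, 8.56 and 15.1, and had 0.57 ± 0.28 (0.289) in Dp16 2xIFNRs, at 2.91, 7.20 and 10.4. Both groups overlapped wild-type. The Mrap call was lost without any 1 of 10 libraries (wild-type replicates 1, 2, 4, 5 and 6, Dp16 replicates 1, 2, 3 and 5 and Dp16 2xIFNRs replicate 5), with adjusted p of up to 0.1115 over all alternatives.

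The 5 fat markers beside it summed to 307 to 411 CPM in wild-type, 384 to 642 in Dp16 and 230.5 to 449 in Dp16 2xIFNRs. The Dp16 female at 642 was also the animal with the highest Mrap value. Of these markers, Adipoq rose in Dp16 (0.60 ± 0.16, 0.0438) and Ucp1 fell in Dp16 2xIFNRs (-2.26 ± 0.56, 0.0291). The 5 adrenal markers summed to at most 7.92 CPM in the Dp16 and Dp16 2xIFNRs libraries and reached 63.3 in 1 wild-type library. Of the 3 tested, Star, which moves cholesterol into mitochondria for steroid synthesis, was called lower in Dp16 2xIFNRs than in wild-type (-3.94 ± 1.05, 0.0440), and Hsd3b1 had -3.88 ± 1.15 (0.0780). How far wild-type replicate 5 alone set the Star and Hsd3b1 values was not tested. The part of fat and adrenal tissue in the Mrap values was not tested. Its partner receptors Mc2r and Mc4r and its relative Mrap2 were not called.

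**Figure D3:**
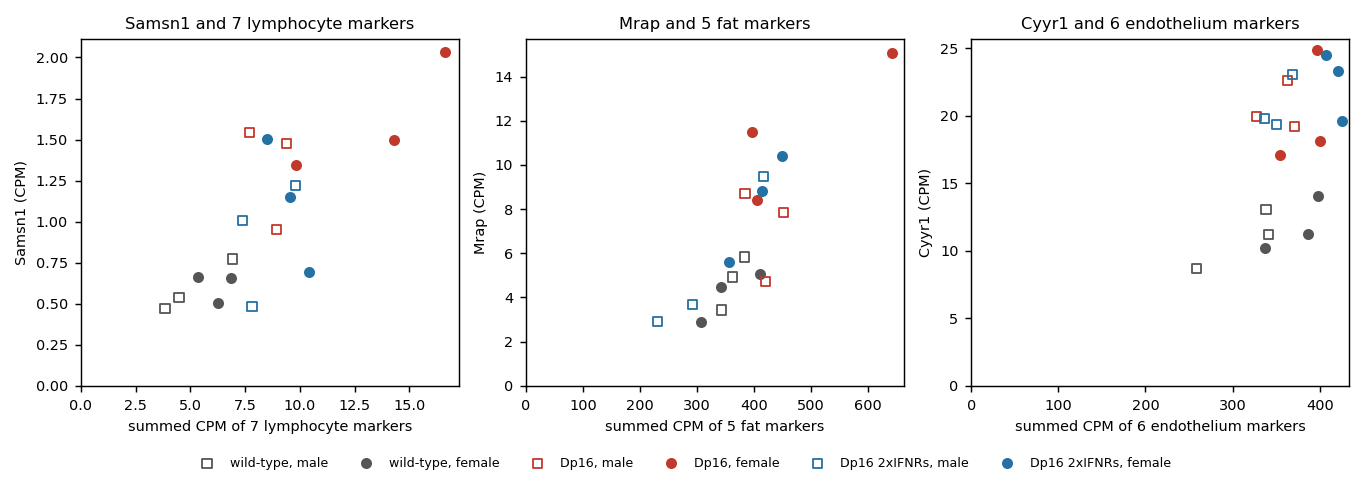
CPM of Samsn1, Mrap and Cyyr1 (vertical axes) in each of the 18 libraries against the summed CPM of lymphocyte, fat and endothelium markers (horizontal axes), by genotype (colour) and sex (squares male, circles female). Samsn1 and Mrap are highest in the library with the highest marker sum, a Dp16 female. Cyyr1 of the wild-type animals lies at 8.71 to 14.1 CPM and that of the others at 17.1 to 24.9, with marker sums of 258 to 398 CPM in wild-type and 328 to 426 in the others.

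In the edgeR fit, Tiam1 and Hunk were called in Dp16 2xIFNRs only. In Dp16, 4 of 30 alternatives also called Tiam1 higher, and 0 called Hunk. Tiam1, an exchange factor that activates Rac, had 0.43 ± 0.14 (adjusted p 0.0939) in Dp16 and rose by 0.61 ± 0.14 (0.0168) in Dp16 2xIFNRs, with 6.13 to 13.05 CPM in wild-type, 9.94 to 17.2 in Dp16 and 9.62 to 16.9 in Dp16 2xIFNRs. The latter call was lost without wild-type replicate 1 and without sex as a term. It was also lost in limma on log2(RPKM + 0.1) with no filter on low values, with adjusted p of up to 0.154 over all alternatives. Its paralogue Tiam2, on another chromosome, rose in both genotypes, by 0.48 ± 0.13 (0.0495) and 0.64 ± 0.13 (0.00837). Hunk, a kinase of the SNF1-related family, had 0.47 ± 0.17 (0.137) in Dp16 and rose by 0.64 ± 0.17 (0.0372) in Dp16 2xIFNRs. The Hunk ranges of 6.45 to 19.9, 9.65 to 22.8 and 8.80 to 26.5 CPM overlapped widely, and its call was lost without any 1 of 8 libraries (wild-type replicates 1, 2, 4 and 5 and Dp16 2xIFNRs replicates 1, 2, 4 and 6), with adjusted p of up to 0.477 over all alternatives.

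Synj1 encodes the lipid phosphatase that strips clathrin from endocytic vesicles. It rose by 0.51 ± 0.09 (adjusted p 0.00226) and 0.68 ± 0.09 (0.000158), from 18.3, 21.1 and 31.6 CPM in wild-type to 25.3, 34.4 and 37.5 in Dp16 and 30.6, 37.2 and 39.1 in Dp16 2xIFNRs. Overlap came from 1 wild-type male at 31.6 CPM. The Synj1 call in Dp16 was lost without sex as a term. None of 5 listed partners in endocytosis, Synj2, Sh3gl1, Sh3gl2, Bin1 and Dnm2, was called.

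Map3k7cl, a short relative of the kinase TAK1, had the highest level per length of the 26 genes and one of the smallest folds. In wild-type kidney it stood at 31.1 ± 6.5 RPKM (SD, n = 6), ahead of Mrpl39 at 20.2 ± 0.88, from which its range was apart. Usp25 followed at 11.7 ± 1.7. From Usp25 down to Samsn1 each gene overlapped the next in range, and Ncam2, at 0.310 ± 0.055, was last among the tested genes. The log2 folds of Map3k7cl were 0.28 ± 0.09 (adjusted p 0.104) and 0.23 ± 0.09 (0.180), with upper limits of 0.47 and 0.43. Wild-type males held 42.8, 44.3 and 48.7 CPM and wild-type females 51.8, 60.5 and 63.3. Dp16 males held 44.2, 49.7 and 51.1 and overlapped wild-type males, while Dp16 females held 78.4, 79.3 and 81.0, above all wild-type animals. The fold in Dp16 was 0.10 ± 0.11 in males and 0.44 ± 0.11 in females, and the unadjusted p of that difference was 0.032. In Dp16 2xIFNRs the order was the other way, 0.32 ± 0.11 in males and 0.14 ± 0.11 in females (unadjusted p 0.231).

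**Figure D4:**
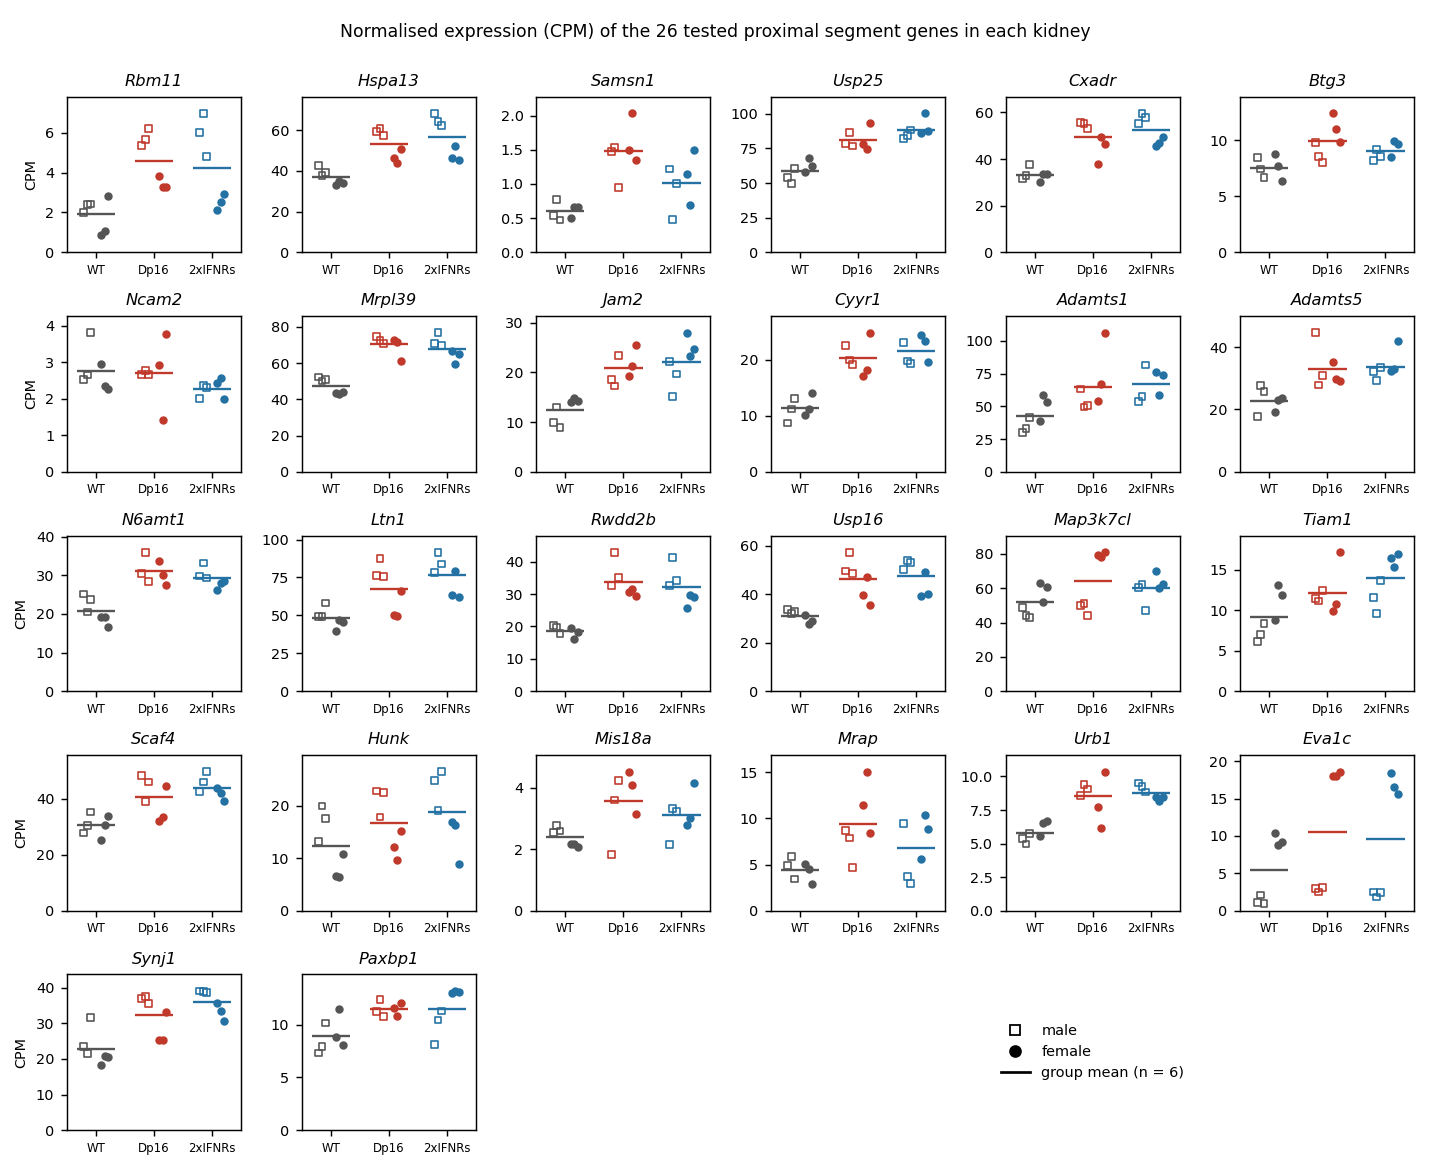
CPM (vertical axis, from 0) of the 26 tested proximal genes in each of the 18 kidneys by genotype (2xIFNRs is Dp16 2xIFNRs), males as open squares, females as filled circles, with the mean of 6 animals as a bar. Mrpl39, Usp25, Hspa13, Rwdd2b, Jam2 and Cyyr1 show both groups with the duplication apart from wild-type, Ncam2 shows all 3 groups together, and Eva1c splits by sex within each group.

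The comparison of Dp16 2xIFNRs with Dp16 asks whether the proximal genes, at 3 copies in both, depend on the copy number of the receptors. None of the 26 was called (0.0171% of all genes were, 3 genes, each of them a receptor), and DESeq2 also called none. The lowest adjusted p was 0.85. One gene had an unadjusted p under 0.05, against 4.71% of all genes: Samsn1, with -0.54 ± 0.24 (0.0354, interval -1.04 to -0.04). Ltn1, with 0.19 ± 0.09, stood at the edge. The median log2 fold was 0.04 and the median half-width of an interval 0.23. For Mrpl39 the interval was -0.17 to 0.05 and for Hspa13 -0.04 to 0.21. That of Mrap reached from -1.02 to 0.12, a width that leaves both a 1.5-fold lower level and no change inside it. The 5 genes called in 1 of the 2 comparisons with wild-type, Samsn1, Btg3 and Mrap in Dp16 and Tiam1 and Hunk in Dp16 2xIFNRs, did not pass the threshold in this direct comparison.

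Sex moved many of the proximal genes. Females and males differed in 15 of the 26, which is to be read against 38.8% of all genes tested. The 5 genes higher in females were Eva1c, Map3k7cl (0.42 ± 0.08), Tiam1 (0.42 ± 0.12), Adamts1 (0.37 ± 0.13) and Jam2 (0.33 ± 0.09), and 19.7% of all genes were called in that direction. The 10 higher in males were Hunk (-0.87 ± 0.14), Rbm11 (-0.83 ± 0.17), Ltn1 (-0.36 ± 0.07), Hspa13 (-0.34 ± 0.05), Synj1 (-0.33 ± 0.07), Usp16 (-0.27 ± 0.06), Rwdd2b (-0.24 ± 0.07), Cxadr (-0.22 ± 0.06), N6amt1 (-0.18 ± 0.06) and Mrpl39 (-0.17 ± 0.04), a direction called in 19% of all genes. Hunk in wild-type lay at 13.1, 17.6 and 19.9 CPM in males and 6.45, 6.51 and 10.8 in females. Usp25, Cyyr1, Adamts5, Scaf4 and Urb1, which rose in both genotypes, were not called between the sexes.

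**Figure D5:**
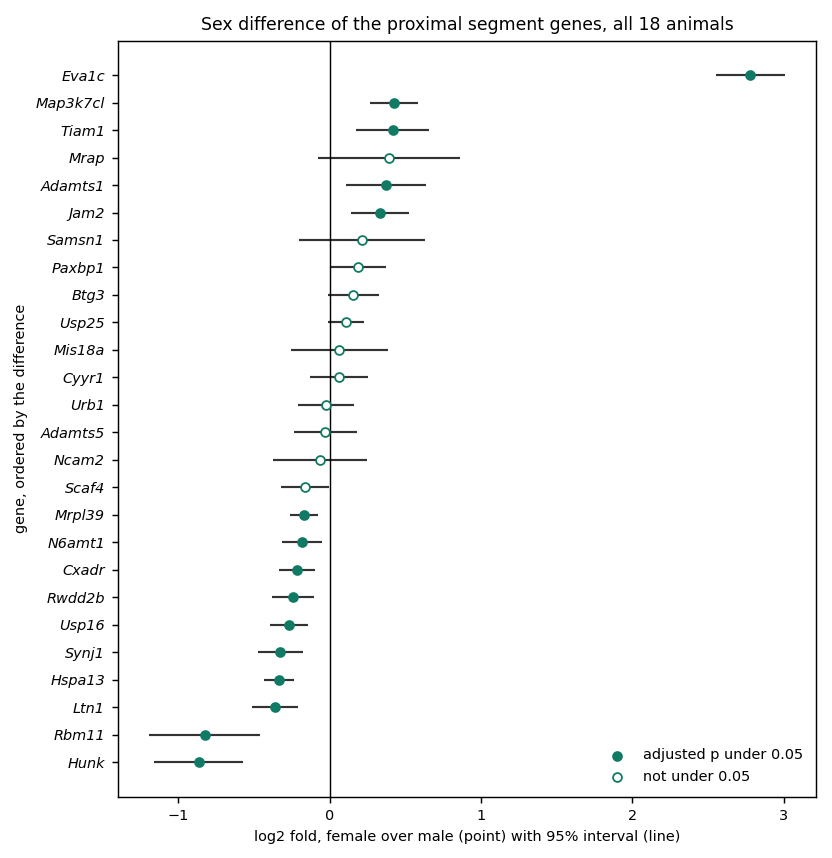
Log2 fold of females over males (horizontal axis; point, with its 95% interval as a line) for the 26 tested proximal genes, ordered by size over all 18 animals, with filled points for an adjusted p under 0.05. Eva1c lies at 2.78, Hunk and Rbm11 at -0.87 and -0.83, and the remaining genes between -0.36 and 0.42.

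The increase itself was not shown to depend on sex in any of them. The interaction of sex with genotype was called in 0 of the 26 in Dp16 and 0 in Dp16 2xIFNRs (0.0171% and 0.00569% of all genes). At an unadjusted p under 0.05 it was 1 gene, Map3k7cl, in Dp16 (7.85% of all genes) and 0 in Dp16 2xIFNRs (3.53%), and DESeq2 called 0 in both.

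The 6 proximal genes that were not tested had few or no counts. Tmprss15, the enteropeptidase of the gut, and Olig2, a transcription factor of oligodendrocytes, had 0 counts in all 18 libraries, which allows up to 3 counts, or 0.00925 CPM, in the 6 wild-type libraries together (counting error only). Lipi, a phospholipase, had 0, 2 and 12 counts summed over wild-type, Dp16 and Dp16 2xIFNRs, and 2 of the Dp16 2xIFNRs libraries held those 12. Grik1, a kainate receptor of neurons, had 5, 2 and 7. For Chodl, a lectin of motor neurons and muscle, the sums were 10, 10 and 1.

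Olig1 was read in nearly every kidney, with 42, 36 and 42 counts in the 3 groups and at most 23 in a library, that of a Dp16 2xIFNRs male. It did not pass the filter on low counts and was not tested.

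The listed partners and relatives of the proximal genes, 74 genes outside the block of which 69 were tested, were mostly not called. In Dp16, 2 were higher (Adamts4 and Tiam2) and none lower, with a median log2 fold of 0.0074. In Dp16 2xIFNRs 3 were higher (Adamts4, Tiam2 and Vcan) and 1 lower, the deadenylase subunit Cnot7 at -0.21 ± 0.06 (adjusted p 0.0390), with a median of 0.027. Those shares, 2.90% and 5.80%, are near the 4.23% and 4.79% of all genes.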

How the data were processed

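The authors deposited raw counts and RPKM values for 55385 genes in 18 kidney libraries of polyadenylated RNA. The build GRCm38, the aligner HISAT2 2.1.0 and HTSeq 0.6.1, with SAMtools 1.5, FastQC 0.11.5 and bcl2fastq, are named in the submitters' processing notes. How the deposited RPKM were made is not given in the sources used here. Dividing counts by RPKM gave 1 gene length within 0.1% in 11514 of 11514 genes. Positions came from GENCODE M21 for 55144 identifiers, and promoters from RefSeq.

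The rule for the 32 genes uses names and chromosome only, but the set and all lists were proposed with earlier results of these data known. Counts were fitted with edgeR 4.0.16 (quasi-likelihood test, TMM, R 4.3.3) in all 18 libraries with genotype and sex as terms, after a filter by group (minimum count 10, total 15) that removed 37810 genes. Two-sided p-values were adjusted over 17575 genes (Benjamini-Hochberg), with a threshold of 0.05. The SE comes from the fitted weights and the moderated dispersion. CPM use TMM library sizes. The tests were checked on simulated data. Interactions came from a fit with sex by genotype terms. Alternatives used DESeq2 1.42.0, limma 3.58.1, other filters and covariates, and each library left out.

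Every proximal gene is named, outside them the receptors, the 3 nearest genes beyond Lipi, the partners that passed the threshold and the listed cell type markers. A further marker list is not reported here. The biological coefficient of variation was 16.8%. Promoter windows were not found for 10 of the genes, and no protein sequence is shown.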

Additional observations from a re-analysis of the deposited data

Results flagged for a closer look

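In 5 of 78 combinations of gene and genotype, 1 animal lay far from the other 5 by Dixon's criterion, which flags about 1 in 20 by chance. Usp25 in Dp16 2xIFNRs replicate 4 was at 100.3 CPM, with the next animal at 88.2. Ncam2 in Dp16 replicate 3 was at 1.42 CPM, with the next at 2.67. Mrpl39 in Dp16 replicate 4 was at 61.4 CPM, below the next at 70.8. Adamts5 in Dp16 2xIFNRs replicate 5 was at 42.2 CPM, above the next at 33.5. Map3k7cl in Dp16 2xIFNRs replicate 6 was at 47.0 CPM, below the next at 60.2. Leaving out these animals ended no call of Usp25, Mrpl39 or Adamts5 and gave Ncam2 and Map3k7cl none.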

How the results depend on the processing

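Over 30 alternatives no called proximal gene changed direction in the 3 genotype comparisons. The count of 20 genes higher in Dp16 ranged from 17 to 21 when 1 library was left out and from 11 to 23 otherwise: without sex as a term it was 11, and with DESeq2 23. The count of 19 in Dp16 2xIFNRs ranged from 17 to 20 and from 14 to 20. Between the 2 genotypes it stayed at 0, and so did both interactions, while the 15 sex differences ranged from 14 to 16. In Dp16, 11 genes were called under every alternative that tested them, and 14 in Dp16 2xIFNRs. Samsn1, among the 11, had 29 alternatives, since a minimum average of 1 on the log2 CPM scale removed it. Without sex as a term 9 and 5 calls were lost. Those of Rbm11, Eva1c and Adamts1 were lost in both genotypes. Those of Adamts5, Btg3, Ltn1, Mrap, Scaf4 and Synj1 were lost in Dp16, and those of Tiam1 and Hunk in Dp16 2xIFNRs. The folds of Rbm11 and Eva1c were then 1.25 and 0.95 in Dp16, with adjusted p of 0.0719 and 0.763, and the cause was not tested. With the sample number as a replicate block the counts were 22, 20 and 0, and the sex differences 14. The numbers are not stated to pair animals: same-numbered libraries deviated with correlations of -0.165 to 0.202, and 6 of 18 correlated best with their own number. With the last number of the identifier as a random block in limma-voom (consensus correlation 0.0778) the counts were 20, 19 and 0. Counts were fewest in the 6 untested genes and low in Samsn1, Mis18a, Ncam2 and Rbm11, and the part of sequencing depth in these results was not tested. On the log2(RPKM + 1) scale, which by its construction understates low genes, Dp16 had 0.44 for Samsn1, 0.66 for Rbm11 and 0.28 for Urb1.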
